A study of Mus musculus with 6 samples.

Results

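The clustered protocadherins are 58 genes among the 50686 identifiers counted by RNASeq. They were taken as every gene whose GENCODE vM21 symbol starts with Pcdha, Pcdhb or Pcdhg, which gave 14 genes of the alpha cluster, 22 of the beta cluster and 22 of the gamma cluster. All 58 were present in the count files. The rule uses symbols and no measured value, but it was set with earlier results of these data known. Their RNA was measured by RNASeq in 2 cultures of neural stem cells (NSC) and 2 cultures labelled NSC Bmi1Over, and the repressive histone mark H3K27me3 was mapped by ChIPSeq in 1 library of each. NSC came from wild type mouse embryos. NSC Bmi1Over came from embryos labelled STOPFloxBmi1;NestinCre, in which Cre driven by the Nestin promoter of neural progenitors removes a stop in front of a transgene for the Polycomb protein Bmi1, so that the transgene is present from the embryo onwards and is not switched on in the dish. Both kinds of culture were prepared from the cerebral hemispheres of embryos of 1 stage and grown with growth factors. The study also holds tumour-initiating cells, which were not analysed here. The comparison asks how the members differ in RNA and in H3K27me3 between the cultures labelled NSC Bmi1Over and NSC.

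Clustered protocadherins are adhesion proteins of the cadherin superfamily that bind like copies of themselves on a neighbouring cell. In neurons each cell switches on a few of them from alternative promoters, which gives single cells an identity used in self-avoidance of dendrites and in axon arborisation, and the choice depends on CTCF and cohesin looping promoters to distant enhancers and on DNA methylation. The C-type genes at the ends of the alpha and gamma clusters are an exception, as they are usually expressed without this random choice. Polycomb proteins, Bmi1 among them, hold genes silent together with H3K27me3.

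All members lay on the plus strand of chromosome 18 in the build GRCm38 (mm10). The alpha cluster ran from 36930184 to 37187661, the beta cluster from 37264938 to 37524479 and the gamma cluster from 37661793 to 37841873. The gaps between them were 77276 bp and 137313 bp. Alpha and gamma genes each start with a variable exon, which codes for the extracellular part and is spliced to constant exons shared by the whole cluster. Each of the 14 alpha genes shared exon bases with the 13 others, and each of the 22 gamma genes with the 21 others. The counts hold reads that fell on 1 gene only, so that alpha and gamma genes were measured through their unshared bases and the constant exons were not measured. For 6 of these genes, Pcdha4, Pcdha6, Pcdha7, Pcdhga4, Pcdhga8 and Pcdhgc5, part of the first exon was also shared with an annotated gene on the same strand. The beta genes have no constant exon, and 19 of the 22 were free of any shared base. Pcdhb21 and Pcdhb22 share an end, and Pcdhb12 lies across an antisense gene. Pcdhgb8 is annotated as a polymorphic pseudogene. The symbol Pcdha11 stands for 2 identifiers, and ENSMUSG00000007440 lies where RefSeq places Pcdha10.

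The counted reads per library ranged from 18112100 to 61353076, and the members took between 0.0712% and 0.110% of them. Marker genes of neural stem cells were present in all libraries, with 10 of 10 tested and 0 called by edgeR between the groups. Sox2 and Hes5 had an unadjusted p under 0.05, both lower in NSC Bmi1Over, and the median log2 fold change of the 10 was -0.24, with 3 above 0. Among 10 neuron markers 9 could be tested, 2 had an unadjusted p under 0.05 (Syt1 and Gap43, both higher), and Syt1, a synaptic vesicle protein, rose. Of the 9, 4 were above 0, and their median log2 fold change was -0.07. The summed neuron markers were between 1050 and 1056 CPM (counts scaled by library size and TMM factor) in NSC and between 1046 and 1127 in NSC Bmi1Over. Most of that sum was Map2, and without it the markers summed to 137.2 and 171.2 CPM in NSC and to 208.2 and 257.5 CPM in NSC Bmi1Over. Without both Map2 and Syt1 they summed to 128.1 and 143.9 CPM in NSC and to 141.7 and 161.7 CPM in NSC Bmi1Over, which overlapped. The part of the marker genes' differences in the members' values was not tested. The summed astrocyte markers were between 110.5 and 140.6 CPM in NSC and between 65.1 and 84.7 in NSC Bmi1Over, with Aldh1l1 lower by the test and Gfap under 1 CPM in every library. Without Aldh1l1 they summed to 18.4 and 16.3 CPM in NSC and to 18.7 and 11.9 CPM in NSC Bmi1Over, which overlapped. Unmapped reads made up 11.2% of NSC replicate 1, 13.7% of NSC replicate 2, 16.2% of NSC Bmi1Over replicate 1 and 17.6% of NSC Bmi1Over replicate 2. The targeted gene went against the label. Bmi1 stood at 133.3 and 123.5 CPM in NSC and at 118.6 and 112.6 CPM in the libraries labelled NSC Bmi1Over, a log2 fold change of -0.15 (SE 0.12, edgeR adjusted p = 0.463). How far RNA of the transgene can be counted on Bmi1 was not tested, and every direction below is that of the libraries labelled NSC Bmi1Over against NSC.

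In these bulk cultures most protocadherin reads came from the gamma cluster. It held between 70.6% and 72.0% of the members' reads in each library, the beta cluster between 25.7% and 26.9% and the alpha cluster between 1.62% and 2.53%. These shares are of the unstranded counts, which leave out reads where an antisense gene overlaps. By the sum of the counts on each strand, NSC replicate 1 had 892.0 CPM on the gamma genes, against 467.1 unstranded. For the beta genes of that library these were 179.4 and 177.8 CPM, so that the gamma share is larger by that count. A bulk value cannot tell fewer expressing cells from less RNA per cell. To compare genes, the level was taken as CPM per kb of exon that no other gene shares. On that scale the median member of the alpha cluster stood at 0.128, of the beta cluster at 1.19 and of the gamma cluster at 4.33 CPM per kb, beside a median of 6.38 CPM per kb over 13321 tested protein-coding genes.

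The C-type genes did not share a level. Pcdhgc3, a gamma C-type gene, was the highest member of the 3 clusters. Its mean level over the 4 libraries of 212.8 CPM per kb was at the 99.0th percentile of the tested protein-coding genes. It took between 58.2% and 61.9% of the unstranded reads on the gamma cluster in each library. Those counts leave out its exon bases under an antisense gene. Over the 4 libraries together it had 54276 unstranded reads, while its counts on each strand summed to 125134, a ratio of 2.31. The unstranded CPM of Pcdhgc3 was 271.9 and 352.0 in NSC and 407.2 and 519.2 in NSC Bmi1Over. Both NSC Bmi1Over libraries lay above both NSC libraries, and the log2 fold change of 0.57 (SE 0.19) did not pass the test (edgeR adjusted p = 0.122), while DESeq2 gave an adjusted p of 0.0224. Pcdhgc4 had a mean of 6.52 CPM per kb, with 16.6 and 21.3 CPM in NSC and 24.96 and 27.9 CPM in NSC Bmi1Over. Pcdhgc5 had a mean of 2.36 CPM per kb, with 8.40 and 10.8 CPM in NSC and 11.2 and 13.1 CPM in NSC Bmi1Over. These groups did not overlap either, and the edgeR adjusted p was 0.119 for Pcdhgc4 and 0.300 for Pcdhgc5.

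Pcdhac2, the C-type gene next to the alpha constant exons, carried between 73.0% and 80.3% of the reads on the alpha cluster. Its CPM of 13.2 and 15.7 in NSC and 11.9 and 16.6 in NSC Bmi1Over overlapped, and its log2 fold change was -0.0003 (SE 0.20). Pcdhac1 was far lower, at 0.665 and 0.712 CPM in NSC and 0.514 and 0.857 CPM in NSC Bmi1Over. For Pcdhac1 the groups overlapped as well, with a log2 fold change of 0.10 (SE 0.38).

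The other alpha genes were close to the limit of detection. In each library 3 reads, taken as the smallest count to read, stand for between 0.0525 and 0.171 CPM. The highest of the alternate alpha genes were Pcdha12 at a mean of 0.362 CPM per kb and Pcdha11 (ENSMUSG00000007440) at 0.322 CPM per kb. Pcdha12 was counted at 0.729 and 0.593 CPM in NSC and at 0.514 and 0.980 CPM in NSC Bmi1Over. Pcdha11 (ENSMUSG00000007440) had 0.539 and 1.07 CPM in NSC and 0.514 and 1.10 CPM in NSC Bmi1Over. Both genes had overlapping groups. Pcdha4 had no read in any library, and only 404 bp of it were unshared. With 7 of 14 alpha genes passing the filter on low counts, against 21 of 22 beta and 21 of 22 gamma genes, the alternate alpha genes were mostly not comparable between the groups at this depth.

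**Figure D1:**
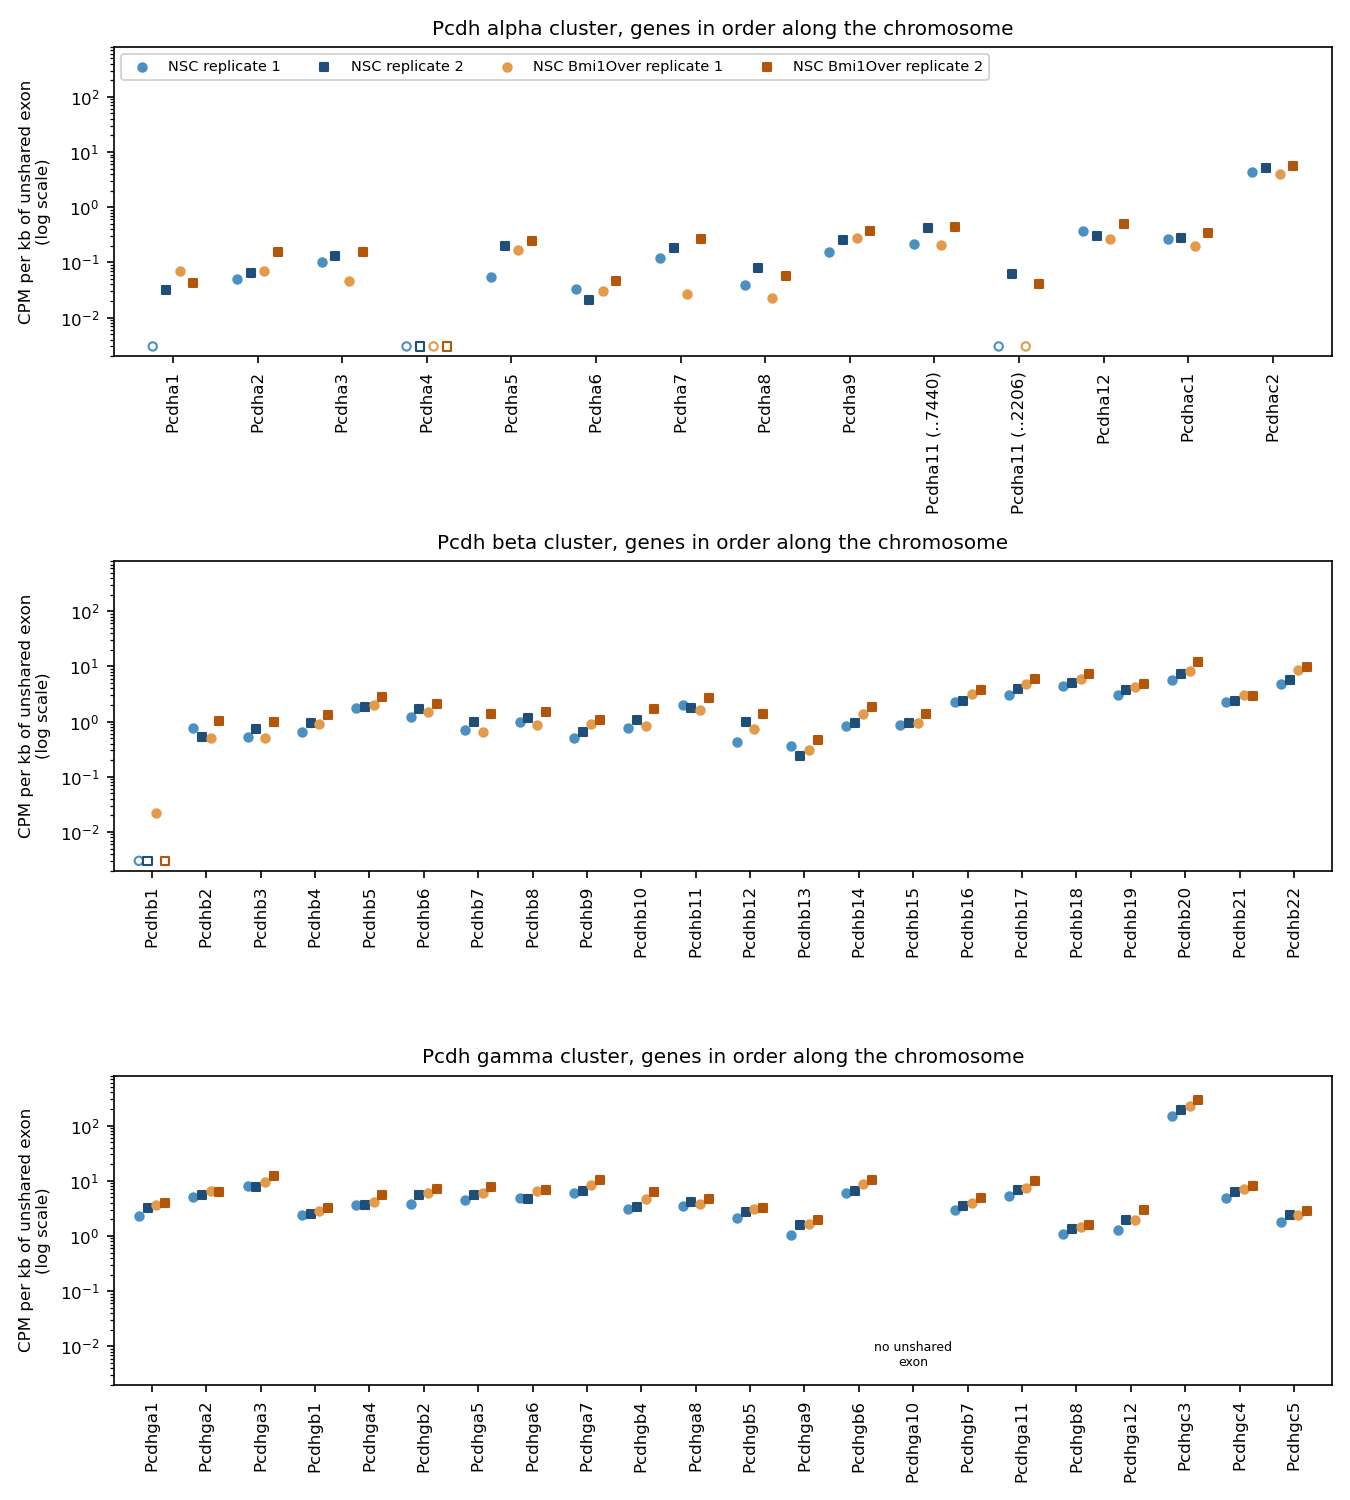
Level of each clustered protocadherin gene in CPM per kb of unshared exon (log axis), with 1 point per library and the genes of each cluster in chromosomal order. Blue points are NSC, orange points are NSC Bmi1Over, circles are replicate 1, squares are replicate 2, and open symbols at the bottom are libraries with 0 reads. Pcdhgc3 stands above all others at a mean of 212.8, the beta genes from Pcdhb16 on stand mostly above those before them, and most alpha genes lie under 0.5.

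Within the beta cluster the level followed position. Pcdhb1, the first gene, had 1 read in the 4 libraries together. The last 7 genes, Pcdhb16 to Pcdhb22, held between 73.4% and 78.3% of the reads on the cluster. The rank correlation of the position in the cluster with CPM per kb was between 0.706 and 0.772 over the 22 genes in each of the 4 libraries, given as a description since neighbouring genes and libraries are not independent. The alternate gamma genes had no such order, with rank correlations between -0.33 and -0.28 over 18 genes. The leading beta genes were Pcdhb20 at a mean of 8.31, Pcdhb22 at 7.21 and Pcdhb18 at 5.63 CPM per kb. Among alternate gamma genes Pcdhga3 led at 9.50 CPM per kb, followed by Pcdhgb6 at 7.85 and Pcdhga7 at 7.83, whose order turned with the stranded sums (7.92 for Pcdhga7).

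The order of genes by level was much alike in all 4 libraries. Between any pair of libraries the rank correlation over the cluster's genes was from 0.918 to 0.968 for the beta cluster and from 0.969 to 0.986 for the gamma cluster. The share of the unstranded gamma reads on Pcdhgc3 overlapped between the groups, at 58.2% and 60.8% in NSC and 60.4% and 61.9% in NSC Bmi1Over. The share of beta reads on Pcdhb16 to Pcdhb22 was 73.4% and 74.0% in NSC and 78.3% and 73.9% in NSC Bmi1Over, so that these groups overlapped.

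Summed by cluster, the beta and gamma genes were higher in NSC Bmi1Over. The beta genes summed to 177.8 and 207.2 CPM in NSC and to 247.4 and 315.6 CPM in NSC Bmi1Over, means of 192.5 ± 20.8 and 281.5 ± 48.2 (SD, n = 2) and a ratio of 1.46. The gamma genes summed to 467.1 and 579.3 CPM in NSC and to 674.2 and 838.4 CPM in NSC Bmi1Over, means of 523.2 ± 79.4 and 756.3 ± 116.1 (SD, n = 2) and a ratio of 1.45. In both clusters the lower NSC Bmi1Over library was above the higher NSC library. The alpha genes summed to 16.4 and 20.4 CPM in NSC and to 15.1 and 22.8 CPM in NSC Bmi1Over, a ratio of 1.03 with overlapping groups. No test was made of these sums, and with 2 libraries against 2 an exact permutation test could not give a two-sided p below 0.333.

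**Figure D2:**
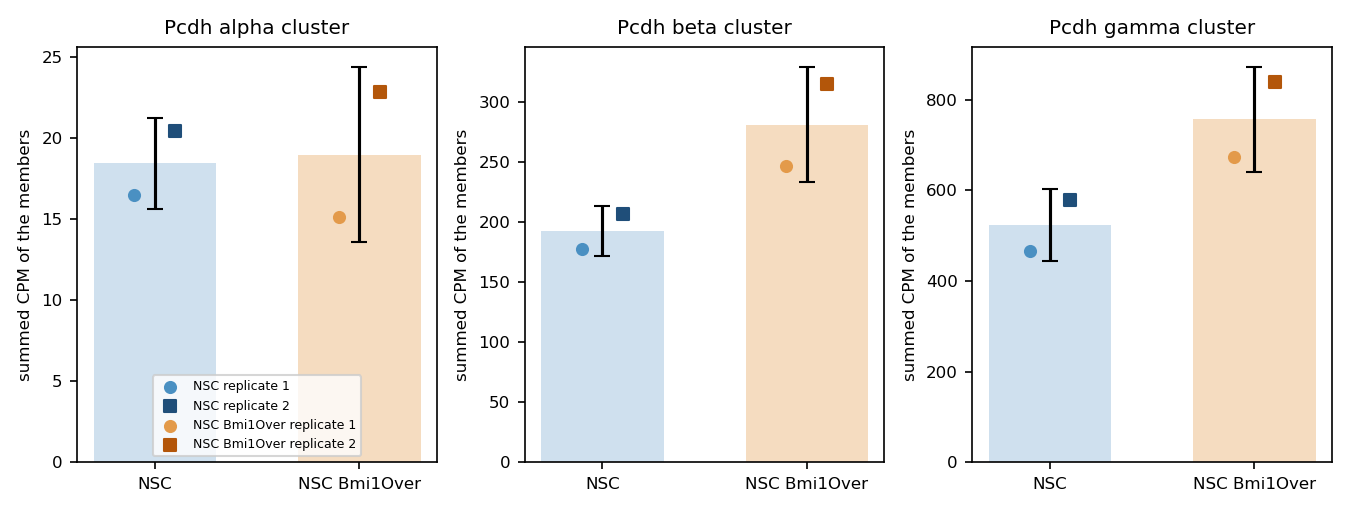
Summed CPM of the members of each cluster, with bars at the mean, error bars of 1 SD (n = 2) and 1 point per library (the axes start at 0 and differ between panels). The beta and gamma points of NSC Bmi1Over lie above those of NSC, at ratios of the means of 1.46 and 1.45, and the alpha points overlap.

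The libraries of 1 group also differed from each other. Of the 49 tested members, 43 were higher in NSC replicate 2 than in NSC replicate 1, with a median log2 difference of 0.27, and 47 were higher in NSC Bmi1Over replicate 2 than in NSC Bmi1Over replicate 1, with a median of 0.38. NSC Bmi1Over replicate 2 was the highest library for 47 of the 49, and NSC replicate 1 the lowest for 36. The 4 libraries stood in the same order by beta sum, by gamma sum and by the share of unmapped reads given above. The part of unmapped reads in the difference between the groups was not tested.

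Gene by gene, the differences were small and nearly all pointed one way with all 4 libraries, and 1 member passed the test. Of the 49 tested members, 48 had a log2 fold change above 0, against 48.6% of all 15521 genes tested, and the median was 0.47 for the members and -0.01 for all genes. Without NSC Bmi1Over replicate 2, 38 of the 49 were above 0. The median of the members was between 0.27 and 0.63 when 1 library was left out. By cluster, with all 4 libraries, the median log2 fold change was 0.29 for 7 alpha genes, 0.44 for 21 beta genes and 0.48 for 21 gamma genes. The gamma A and gamma B genes, 2 families of variable exon, had medians of 0.48 each. Both NSC Bmi1Over libraries lay above both NSC libraries for 31 of the 49 members, where 29.0% of all genes did, and below for none, where 30.0% of all genes did. Split by cluster, those 31 were 1 of 7 alpha, 11 of 21 beta and 19 of 21 gamma genes. An unadjusted p under 0.05 was reached by 20 of the 49 members (0 of 7 alpha, 8 of 21 beta and 12 of 21 gamma genes) and by 24.2% of all genes. The only member called, with an edgeR adjusted p under 0.05, was Pcdhb22, or 2.04% of the tested members, beside 2.15% of all genes (2.03% higher and 0.122% lower). In this fit the share of members called was close to that of the background. By DESeq2 it was 8 of 49, or 16.3%, beside 9.59% of all genes. Those 8 were Pcdhb14, Pcdhb17, Pcdhb20, Pcdhb22, Pcdhga7, Pcdhgb4, Pcdhgb6 and Pcdhgc3, with DESeq2 adjusted p between 0.000277 and 0.0312. In edgeR, leaving out NSC replicate 1 or NSC Bmi1Over replicate 2 gave 0 called members (beside 1.12% and 0.838% of all genes), while leaving out NSC replicate 2 gave 7 (14.3%, beside 9.87% of all genes) and leaving out NSC Bmi1Over replicate 1 gave 11 (22.4%, beside 12.97%). Of all genes 315 were called higher and 19 lower, and 346 and 191 when counts were scaled by library size alone, which moved the median of all genes to -0.17 and that of the members to 0.31. The members are neighbours in the genome and are not replicates of each other.

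**Figure D3:**
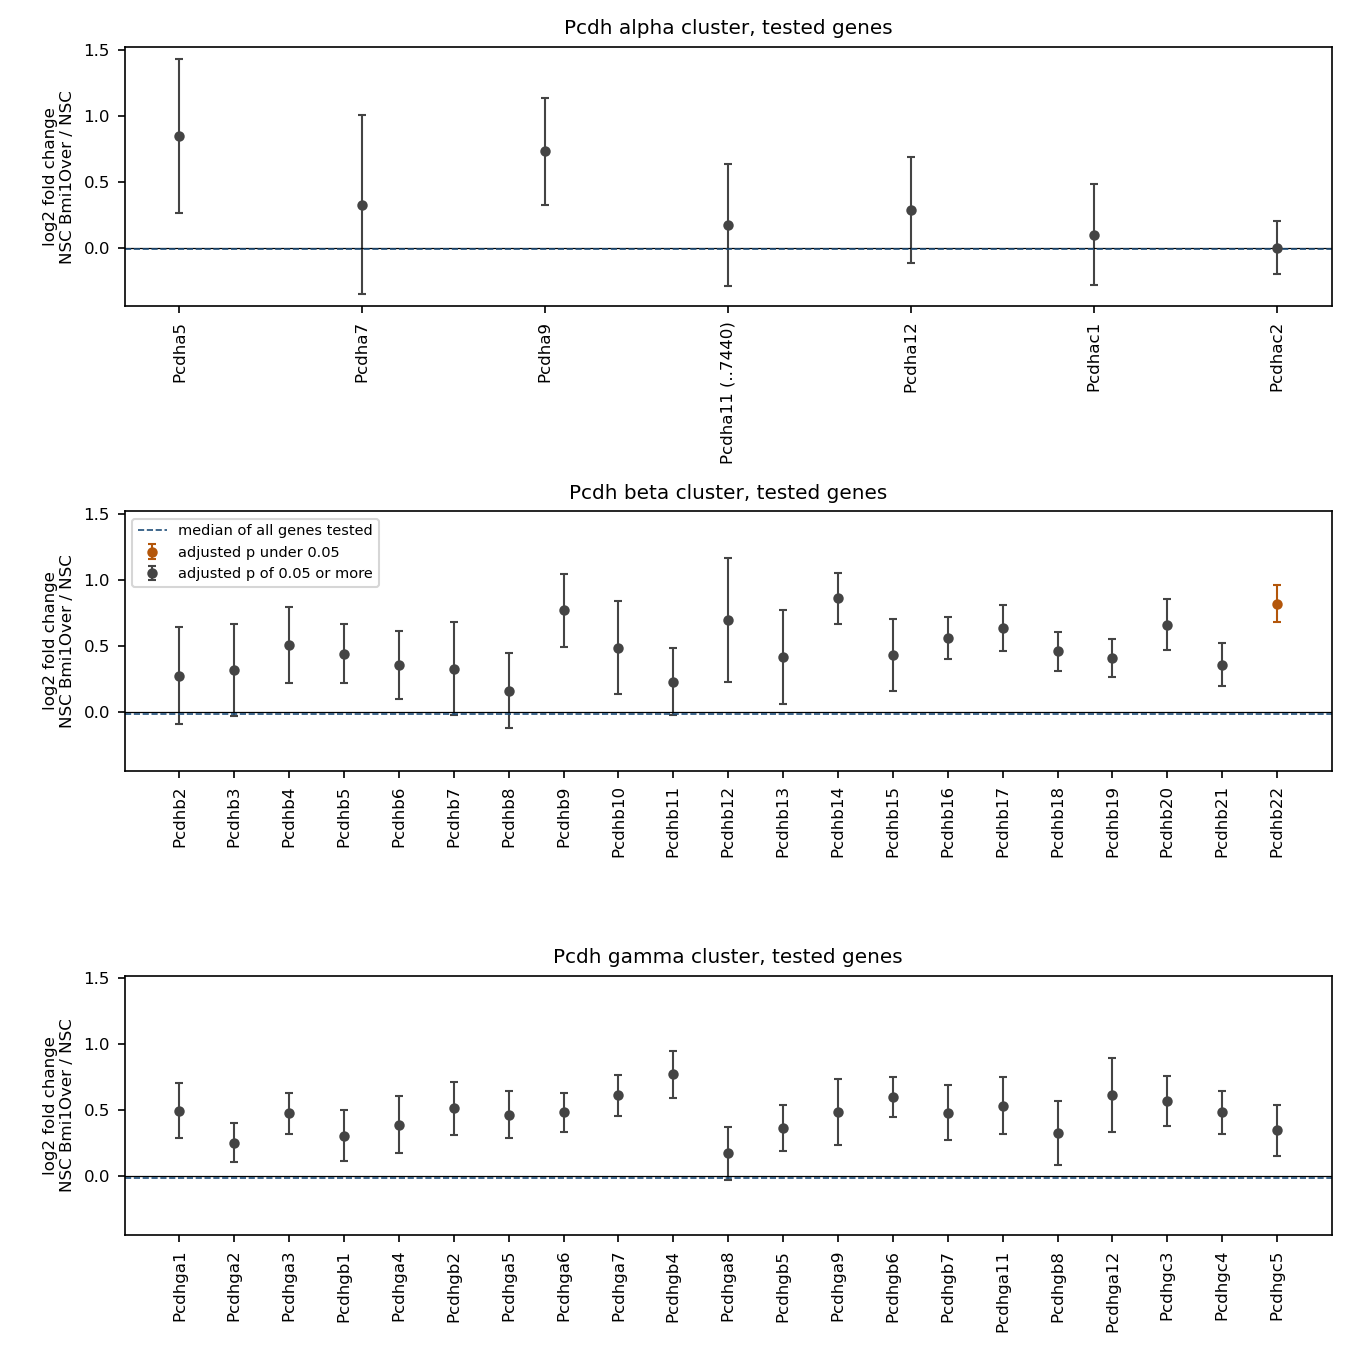
Log2 fold change of NSC Bmi1Over against NSC (edgeR) for the 49 tested members, with error bars of 1 standard error. Nearly all points lie above 0 and above the dashed line at the median of all genes tested (-0.01), and Pcdhb22, in orange, is the only gene with an adjusted p under 0.05.

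Pcdhb22, the last gene of the beta cluster, rose. It had 29.6 and 34.7 CPM in NSC and 52.2 and 61.0 CPM in NSC Bmi1Over, and every NSC Bmi1Over value was above every NSC value. The log2 fold change was 0.82 (SE 0.14, edgeR adjusted p = 0.0370). Without NSC replicate 1 the edgeR adjusted p was 0.109, and without NSC Bmi1Over replicate 2 it was 0.0652.

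Pcdhb14 had the largest log2 fold change, at 0.86 (SE 0.19), with 7.26 and 8.23 CPM in NSC and 12.1 and 15.8 CPM in NSC Bmi1Over. Its groups did not overlap, and its edgeR adjusted p of 0.0595 missed the threshold, where DESeq2 gave 0.00683. Pcdha5 came next at 0.85, on 0.127 and 0.475 CPM in NSC and 0.400 and 0.577 CPM in NSC Bmi1Over. Its groups overlapped, its lowest value was close to the limit of 3 reads, and its standard error was 0.58.

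At the other end stood Pcdhac2, Pcdhac1 and Pcdhb8, whose groups overlapped. Pcdhac2 was the only tested member with a value below 0, by -0.0003. Pcdhb8, with 3.49 and 4.07 CPM in NSC and 3.09 and 5.11 CPM in NSC Bmi1Over, had a log2 fold change of 0.16 (SE 0.28). The leading beta genes and alternate gamma genes lay between these ends. Pcdhb20 had 20.2 and 25.8 CPM in NSC and 29.7 and 42.5 CPM in NSC Bmi1Over, a log2 fold change of 0.66 (SE 0.19, edgeR adjusted p = 0.0949). Pcdhb18 had 22.6 and 25.3 CPM in NSC and 29.5 and 36.0 CPM in NSC Bmi1Over, a log2 fold change of 0.46 (SE 0.15, edgeR adjusted p = 0.111). In both genes the groups stood apart. Pcdhga3 went from 21.4 and 20.1 CPM in NSC to 25.1 and 32.3 CPM in NSC Bmi1Over, a log2 fold change of 0.48 (SE 0.16, edgeR adjusted p = 0.115). Pcdhgb6 went from 15.1 and 16.9 CPM to 22.3 and 26.2 CPM, a log2 fold change of 0.60 (SE 0.15, edgeR adjusted p = 0.0697). Neither passed the edgeR test, and in both the groups stood apart. DESeq2 called Pcdhb20 and Pcdhgb6, at adjusted p of 0.0297 and 0.0277.

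Antisense genes set how much of some members could be counted. For 13 members an antisense gene covers part of the exons, and reads there were left out of the unstranded counts as belonging to more than 1 gene. The deposited counts by strand keep them, since each read is then placed on 1 strand, and the libraries carried no strand information, with between 49.90% and 49.96% of the stranded counts on the first strand. For the 45 members without an antisense partner the stranded counts summed to exactly the unstranded count. Of the other 13 members 11 had unstranded reads, and there the sum was between 1.21 and 17.0 times as large.

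Pcdhga10, whose variable exon lies whole under the antisense gene Gm26672, had no unstranded read in any library. Its stranded counts summed to 199 and 205 reads in NSC and to 171 and 598 reads in NSC Bmi1Over, a mean level of 3.31 CPM per kb, which is within the range of the other gamma A genes. On its own unshared exon Gm26672 had a mean of 0.276 CPM per kb. The part of Gm26672 in the stranded counts of Pcdhga10 was not tested. The extreme ratio was that of Pcdha11 (ENSMUSG00000102206), with 5 unstranded reads and a stranded sum of 85 in the 4 libraries together. For Pcdhgc3, which BC037039 overlaps, the mean level was 267.0 CPM per kb by the stranded sum. Reads of a gene and of its antisense partner cannot be told apart in these libraries. Counted by the stranded sums, the gamma genes summed to 892.0 and 1086 CPM in NSC and to 1255 and 1524 CPM in NSC Bmi1Over, a ratio of 1.41, and the groups again stood apart.

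**Figure D4:**
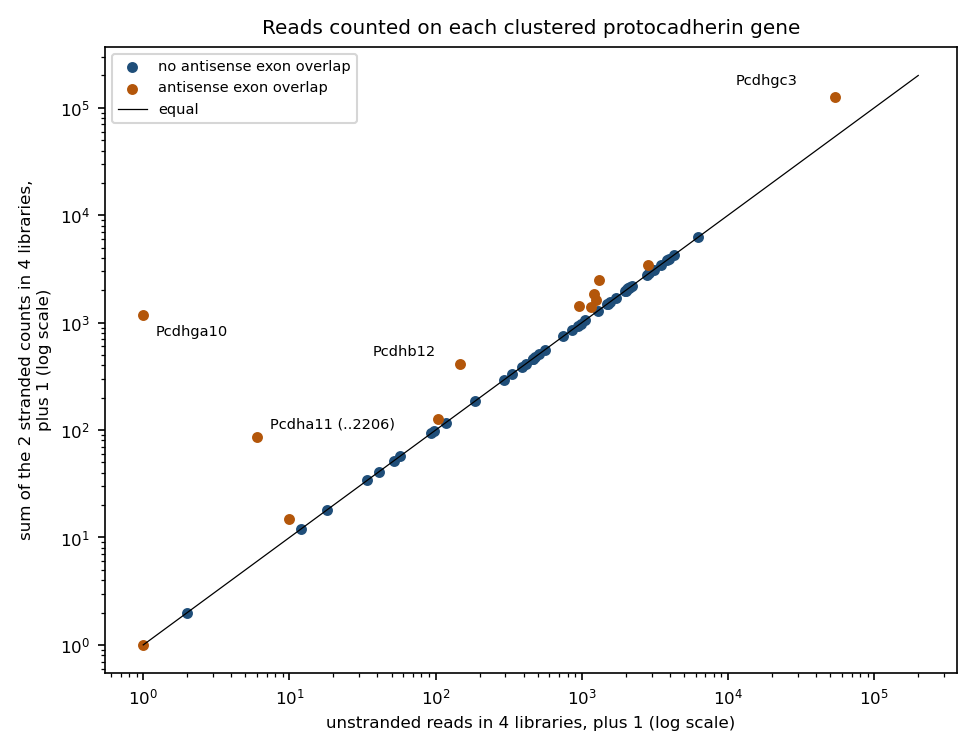
Reads in the 4 libraries together on each member, as the unstranded count (x axis) and as the sum of the 2 stranded counts (y axis), both plus 1 on log axes, with the line of equal values. Members without antisense overlap lie on the line, while Pcdhga10, at 0 unstranded reads, and Pcdha11 (ENSMUSG00000102206) lie farthest above it.

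The variable exons are alike within a family, and a read that maps to several places is not counted. Of the stretches of 50 bases in the unshared exons of a member, a median of 12.5% for the alpha genes, 3.48% for the beta genes and 1.45% for the gamma genes occurred a second time in the genome on either strand. The highest share was 25.5%, for Pcdha7, and Pcdhgb1 led the gamma genes at 16.8%. At a length of 100 bases no member was above 9.80%. For Pcdhb22 the share was 4.36% at 50 bases and 0 at 100 bases, and for Pcdhgc3 it was 0 at both. How far this lowered the levels of the alpha genes was not tested. The length of the reads is not given in the sources used here.

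Neither H3K27me3 list had a peak over the members. The authors called 12982 peaks in NSC and 6810 in NSC Bmi1Over, from 1 library each, and 0 of them in either list overlapped the alpha, beta or gamma cluster by 1 bp or more. Of the 58 members, 0 had a peak within 1 kb of a transcription start site in either list, beside 6.49% of protein-coding genes in the NSC list and 2.99% in the NSC Bmi1Over list. Within 5 kb the members again had 0, beside 8.83% and 4.38%. Windows of 260 kb, about the length of the alpha and beta clusters, were mostly without a peak across the genome, 77.7% of them in NSC and 86.3% in NSC Bmi1Over. An absent peak says that none was called in that library at that depth, and the level of H3K27me3 under the threshold was not measured.

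The peaks nearest to the alpha and beta clusters lay between them. In NSC a peak of 200 bp at chr18:37216609-37216808, 28948 bp past the end of the alpha cluster, had a fold enrichment of 4.41. In NSC Bmi1Over a peak of 200 bp at chr18:37214534-37214733, 26873 bp past that end, had a fold enrichment of 4.07. They did not overlap, and 200 bp was the shortest length in both lists. Both lay in introns of the long models Gm42416, Gm37013 and Gm37388, which run through the clusters. The peak before the alpha cluster was 11173558 bp away in the NSC list and 11251885 bp away in the NSC Bmi1Over list, so that the clusters followed a long stretch of the chromosome without a peak in either list. Chromosome 18 held 1.97 peaks per Mb in NSC and 1.32 in NSC Bmi1Over, beside 4.89 and 2.56 over the main chromosomes. Past the gamma cluster the next NSC peak followed after 237002 bp and the next NSC Bmi1Over peak after 2466165 bp.

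**Figure D5:**
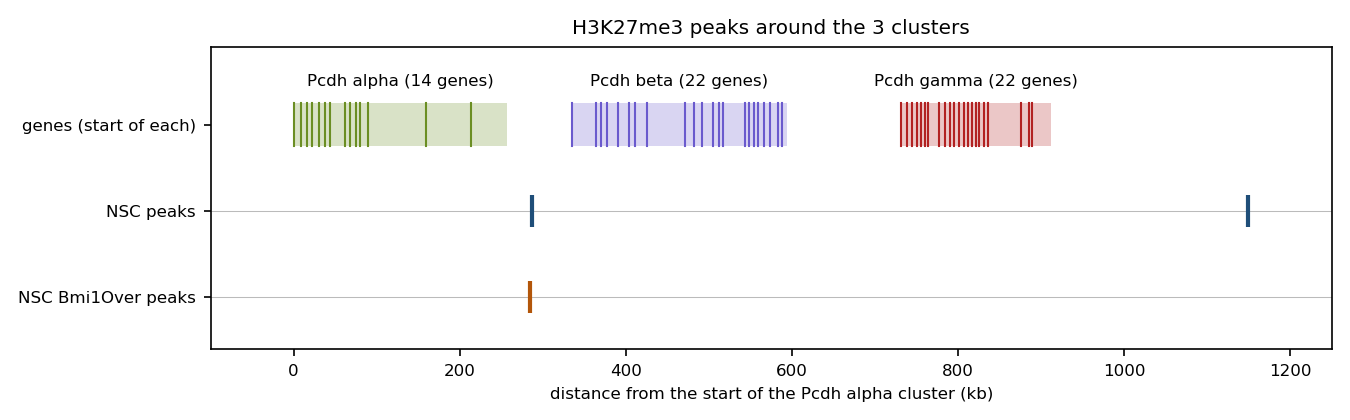
The 3 clusters to scale, with a line at the start of each member, and the H3K27me3 peaks of both lists, by distance from the start of the alpha cluster. No peak lies over a cluster, and each list has 1 peak of 200 bp between the alpha and the beta cluster.

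The members' promoters held fewer G and C bases, by their median, than other promoters. In the 300 bases around the first annotated start of each gene (250 before it and 50 after), the median GC content was 39.7% for the members and 55.0% for 21881 other protein-coding genes. The ratio of observed to expected CpG was alike, with a median of 0.521 for the members and 0.525 for the others. It was at least 0.6 for 9 of 14 alpha (64.3%), 3 of 22 beta (13.6%) and 10 of 22 gamma genes (45.5%), beside 44.4% of the other genes. The letters CGCT, the core of a sequence element known from protocadherin promoters, were found on either strand in 56 of the 58 windows, 96.6%, and in 67.0% of the other genes' windows. No other motif was searched, and a match of 4 letters is a description of the window.

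Genes known to act on the clusters did not pass the test. Of 17 genes for CTCF, cohesin, DNA methylation and other regulators of the locus, all 17 were tested and 0 were called by edgeR at an adjusted p under 0.05, and 0 had an unadjusted p under 0.05. Over all genes these shares were 2.15% and 24.2%. The median log2 fold change of the 17 regulators was -0.07, with 5 of 17 above 0. Dnmt1, the maintenance DNA methyltransferase, had 347.7 and 407.1 CPM in NSC and 380.5 and 381.5 CPM in NSC Bmi1Over. The cohesin subunit Rad21 was at 394.3 and 381.4 CPM in NSC and at 344.7 and 320.6 CPM in NSC Bmi1Over. Trim28, a corepressor that works with Setdb1, had 350.0 and 370.1 CPM in NSC and 363.2 and 324.4 CPM in NSC Bmi1Over. Of these the Rad21 groups alone did not overlap, with an edgeR adjusted p of 0.368.

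Among 18 partners and proteases of protocadherins, 1 rose and none fell, where 2.03% of all genes were called higher and 0.122% lower. Psen2, a catalytic subunit of the gamma-secretase that cleaves protocadherins in the membrane, had 8.78 and 11.0 CPM in NSC and 16.9 and 19.8 CPM in NSC Bmi1Over (log2 fold change 0.90, SE 0.18, edgeR adjusted p = 0.0456). Adam10, the protease that sheds their extracellular part, had 279.3 and 366.6 CPM in NSC and 486.4 and 576.1 CPM in NSC Bmi1Over, and its edgeR adjusted p of 0.0762 missed the threshold. Marcks, a substrate of protein kinase C at the membrane, had a log2 fold change of -0.21 (SE 0.17) and the kinase Fyn one of -0.24 (SE 0.15). The median over the 18 was -0.05.

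The non-clustered protocadherins are single genes outside the clusters. Among them, Pcdh1 (38185914 to 38212053) and Pcdh12 (38267089 to 38284402) also lie on chromosome 18, past the end of the gamma cluster. The non-clustered protocadherins were the family nearest to the members. Of 12 tested, 11 had a log2 fold change above 0, beside 48.6% of all genes, and the median was 0.41. Of the 12, 1 was called, beside 2.15% of all genes. Pcdh18 rose from 17.0 and 18.9 CPM in NSC to 36.7 and 37.1 CPM in NSC Bmi1Over (log2 fold change 1.04, SE 0.13, edgeR adjusted p = 0.0132). Pcdh7 had 77.9 and 85.8 CPM in NSC and 111.2 and 132.1 CPM in NSC Bmi1Over, and its edgeR adjusted p was 0.0652. Pcdh10 and Pcdh17 had log2 fold changes of 0.13 (SE 0.19) and 0.32 (SE 0.17). Of the 12, 2 had a peak within 1 kb of a start site in NSC, Pcdh8 and Pcdh15, and 0 had one in NSC Bmi1Over. Over protein-coding genes the shares were 6.49% and 2.99%. The NSC Bmi1Over list was also shorter, at 6810 peaks against 12982 in NSC, from 1 library each. Whether H3K27me3 itself differed at these genes was not tested. Whether the members and the non-clustered genes differ was not tested.

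Genes that are no members but lie within the same stretch of chromosome gave no call. Of 27 such genes in the files 6 were tested by edgeR, and their median log2 fold change was 0.05. Of the 6, 0 had an unadjusted p under 0.05, beside 24.2% of all genes. Taf7, a subunit of the general transcription factor TFIID between the beta and gamma clusters, had 13.5 and 13.1 CPM in NSC and 12.97 and 9.55 CPM in NSC Bmi1Over, a log2 fold change of -0.25 (SE 0.19, edgeR adjusted p = 0.432). The long intergenic non-coding gene 3222401L13Rik had a log2 fold change of 0.05 (SE 0.22) and Gm10544 one of 0.05 (SE 0.27).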

How the data were processed

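RNASeq was available for 2 NSC and 2 NSC Bmi1Over libraries and H3K27me3 ChIPSeq for 1 of each. Per the methods, the cultures were biologically independent. After trimming (Trim Galore), the authors mapped RNASeq reads to mm10 with STAR and deposited raw counts per gene, unstranded and by strand. The STAR version and annotation are not given in the sources used here. ChIPSeq reads were aligned with Bowtie2 2.3.4 and broad peaks called per library with MACS2. The deposited peak lists give a fold enrichment, used as such, the −log10 of a p-value and of a q-value, and a display score, which was not used.

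Of 50686 identifiers, 50462 matched GENCODE vM21, whose build is that of the files. The 4 summary lines of each count file were left out, which removed unmapped (11.2% to 17.6%), multimapping (4.06% to 4.78%), featureless (7.80% to 8.89%) and ambiguous reads (3.34% to 3.64%). Unstranded counts were fitted over all genes with edgeR 4.0.16 in R 4.3.3 (filterByExpr, TMM, quasi-likelihood test, no covariate), keeping 15521 genes, and called at a Benjamini-Hochberg adjusted p under 0.05. TMM factors spanned 0.932 to 1.08, with a biological coefficient of variation of 12.9%. The fit was tested on simulated data. DESeq2 1.42.0 was an alternative. CPM are TMM-scaled. Levels per gene are divided by exon length not shared with other annotated genes. Peaks were compared in Python 3.11.15, with an overlap of at least 1 bp and a window of 1 kb around every annotated start, or 5 kb. Intervals were not computed, and the limit of 3 reads covers counting error only. Replicates differed by more than sampling noise (chi-square per degree of freedom 25.1 in NSC and 33.4 in NSC Bmi1Over).

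The members and all gene lists were chosen with earlier results of these data known. Genes were named by a rule: every called member, the 3 highest per kb in each cluster, the 5 C-type genes, the 3 largest changes in each direction, members at 0 reads, Bmi1, and from each list the called genes with up to 3 of highest CPM. Other genes named, and the search for CGCT and for antisense partners, were chosen after values were seen. No sequence of the members is shown here. Markers of oligodendrocyte lineage (7 of 7 tested), mesenchymal (1 of 6), microglia (1 of 5), endothelial (2 of 5) and erythroid cells (1 of 4) gave 0 calls by edgeR and 1 gene, of the microglia list, at an unadjusted p under 0.05. The oligodendrocyte lineage markers were high, summing to between 2481 and 2609 CPM per library. Olig1 had between 1020 and 1419 CPM and Olig2 between 825 and 1007 CPM. No other list of this group summed to more than 5.28 CPM in a library. Alternatives were another test, scaling or filter, stranded sums, protein-coding genes alone, a replicate block and leaving out each library.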

Additional observations from a re-analysis of the deposited data

Results flagged for a closer look

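Pcdhga10 had a signal in data outside the main measurement. Its unstranded count was 0 in all 4 libraries, while its counts by strand summed to 199 reads in NSC replicate 1, 205 in NSC replicate 2, 171 in NSC Bmi1Over replicate 1 and 598 in NSC Bmi1Over replicate 2, above the limit of 3 reads that a count of 0 allows. Reads of Gm26672 on the other strand cannot be told apart from those of Pcdhga10. On its own unshared exon Gm26672 had 9 and 15 reads in NSC and 8 and 33 reads in NSC Bmi1Over. The part of Gm26672 in the stranded counts of Pcdhga10 was not tested.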

How the results depend on the processing

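The number of members called in NSC Bmi1Over was 1 by the edgeR fit reported, 8 by DESeq2, 9 with every gene of at least 1 read and 19 with a replicate block, and between 0 and 11 when 1 library was left out. Over all genes it was 334 by that fit, 1488 by DESeq2, 537 with library size alone, 2356 with every gene of at least 1 read, 3459 with a replicate block, and between 130 and 2013 when 1 library was left out. The share of members called was close to that of all genes in the fit reported (2.04% and 2.15%) and above it by DESeq2, with every gene of at least 1 read (16.1% and 8.25%), with the replicate block (38.8% and 22.3%) and without NSC replicate 2 or NSC Bmi1Over replicate 1. It was below that of all genes with library size alone (2.04% and 3.46%), without NSC replicate 1 and without NSC Bmi1Over replicate 2. The shares were near each other with protein-coding genes alone (2.08% and 2.34%) and with DESeq2 size factors (2.04% and 1.57%). So they were with a minimum of 1 CPM in 2 libraries (2.27% and 2.10%) and with stranded sums (1.96% and 1.96%). In each of these settings with near shares 1 member was called. The cause of these moves was not tested. The replicate numbers are given by the labels only as numbers, deviations of same-numbered libraries correlated at r = 0.169 over 15521 genes with 2 pairs, and the numbers were not taken as pairs. The median log2 fold change of the members was between 0.27 and 0.63 when 1 library was left out, and the members above 0 between 38 and 49 of 49, with 38 without NSC Bmi1Over replicate 2. The log2 ratio of summed CPM was then between 0.36 and 0.72 for the beta cluster, between 0.36 and 0.70 for the gamma cluster and between -0.28 and 0.31 for the alpha cluster, whose ratio was -0.11 with library size alone. Of 582 pairs of a member and an alternative, 511 kept direction and call, 49 were newly called, 2 no longer called and 20 of the opposite sign. Pcdhac2, at -0.0003, became 0.0033 by DESeq2, 0.0071 with DESeq2 size factors, 0.010 with a minimum of 1 CPM in 2 libraries, 0.0048 with stranded sums and 0.0044 with protein-coding genes alone. Pcdhac1 became -0.062 with library size alone and Pcdha7 -0.027 with the replicate block. When 1 library was left out, log2 fold changes that changed sign ranged from -0.61 to 0.71 for Pcdha11 (ENSMUSG00000007440), from -0.37 to 0.56 for Pcdha12, from -2.38 to 0.81 for Pcdha7, from -0.42 to 0.32 for Pcdhac1, from -0.28 to 0.21 for Pcdhac2, from -0.17 to 0.86 for Pcdhb10, from -0.23 to 0.54 for Pcdhb11, from -0.38 to 0.61 for Pcdhb2, from -0.31 to 0.67 for Pcdhb3, from -0.36 to 0.71 for Pcdhb7 and from -0.29 to 0.44 for Pcdhb8. With a group of 1 library, that library was assumed to vary like the other group. The counts of peaks over the clusters and of members with a promoter peak stayed at 0 in both lists with a −log10 q of at least 3, a fold enrichment of at least 5, a length of at least 1000 bp and, for promoters, a window of 5 kb. Most alternate alpha genes had under 1 CPM, the parts of depth and of repeated sequence in this were not tested, and constant exons were not measured.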
